A study of Mus musculus with 239 samples.

Results

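The 82 cells described here, of 239 in the series, were single basal cells from the mammary glands of pregnant mice, divided by whether they carried transcripts of Krt18, a keratin of luminal cells. They were chosen by their measured Krt18 and Cdh5. Of the pregnant basal cells, 97 had Cdh5, an endothelial cadherin, below 1 FPKM (fragments per unit of transcript length, scaled to the mapped total), and 5 with more were left out. Among the 97, 26 had Krt18 at 10 FPKM or more and are called Krt18-positive, 56 had Krt18 below 1 FPKM and are called Krt18-negative, and 15 lay between and were in neither class. All came from FVB females of 3 to 4 months, taken at day 12 of pregnancy (12.5 in the protocol), and had been sorted by flow cytometry for intermediate CD24 and high CD29 after blood and endothelial cells were depleted; CDH5 was also stained. Beside them are shown 49 pregnant luminal cells (high CD24, low CD29). A further 34 basal cells, from virgin FVB females also of 3 to 4 months, were classed by the same rule. Each cell was captured on a Fluidigm C1 chip and sequenced as full-length cDNA. No label names the mouse, chip or day of a cell, so each class counts as 1 sample, differences carry no test, and SDs describe the spread between cells.

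Keratins form filaments from a type I and a type II partner. Luminal cells of the mammary gland, which face the duct and make milk, pair Krt18 with Krt8. Basal cells, which lie on the basement membrane and include the contractile myoepithelial cells that squeeze out milk, pair Krt14 with Krt5 and carry smooth muscle actin (Acta2). A basal cell with Krt18 therefore raises the question of whether other luminal genes come with it.

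Krt18 was the value that chose the cells and is given here only as a description. It spanned 11.6 to 891 FPKM with a median of 128 FPKM in the Krt18-positive cells, of which 14 were at 100 FPKM or more, and 0 to 0.700 FPKM with a median of 0.0723 FPKM in the Krt18-negative cells. Pregnant luminal cells had a mean of 1533 FPKM, so that the mean of the Krt18-positive cells, 172 FPKM, was 11.2% of the luminal one. The lowest Krt18-positive cells had 11.6 and 12.4 FPKM, and the cells just outside the class had 9.42 and 9.10 FPKM. The highest Krt18-negative cells had 0.700 and 0.540 FPKM, and the lowest cell between the classes had 1.04 FPKM.

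The basal label held in both classes. Krt14 and Acta2 were each at 10 FPKM or more in 26 of 26 Krt18-positive and 56 of 56 Krt18-negative cells. Among pregnant luminal cells Krt14 was at that level in 34 of 49 and Acta2 in 7 of 49. At 10 FPKM Acta2 thus set basal and luminal cells apart more than Krt14 did. Krt14 spanned 84.8 to 3352 FPKM (median 1119) in Krt18-positive and 22.6 to 4889 FPKM (median 729) in Krt18-negative cells. Acta2 had medians of 5759 FPKM in Krt18-positive, 5158 FPKM in Krt18-negative and 0.453 FPKM in pregnant luminal cells. Krt14, Acta2 and Krt8 were together at 10 FPKM or more in 24 of 26 Krt18-positive cells (92.3%, exact Clopper-Pearson 95% interval 74.9 to 99.1%), 50 of 56 Krt18-negative cells (89.3%, 78.1 to 96%) and 6 of 49 pregnant luminal cells. Most basal cells of pregnancy thus carried Krt8 message whether or not Krt18 was found. Intervals cover the counting of cells only.

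Krt18-positive cells carried more genes. The number of genes at 1 FPKM or more ran from 2149 to 4611 (median 3114) in Krt18-positive cells and from 1190 to 3987 (median 2473) in Krt18-negative cells, and over the 97 cells its rank correlation with Krt18 was 0.47. Relative depth, read from the steps between low FPKM values and set to 1 in the median pregnant basal cell, had medians of 0.937 in Krt18-positive and 1.00 in Krt18-negative cells, with a rank correlation with Krt18 of -0.10. For each gene, the difference reported is the mean of log2(FPKM + 1) in Krt18-positive cells minus that in Krt18-negative cells. Leaving Krt18 out, 6748 genes reached 1 FPKM in at least 10% of the 82 cells, and these are the genes counted below. Of them, 634 (9.40%) were higher by 1 or more in Krt18-positive cells and 21 (0.311%) were lower by 1 or more. The median over the counted genes was 0.25 and 73% lay above 0, so a small positive difference was common to most genes. The part of gene number in the differences below was not tested. For several lists and some genes, values are also given against 26 Krt18-negative cells chosen as nearest in gene number. Median gene number was 3114 in the Krt18-positive and 2912 in the matched Krt18-negative cells. This comparison was added after the data had been seen. There, 382 genes (5.66%) were higher and 199 (2.95%) lower by 1 or more, and the median over genes was 0.09.

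Of the counted luminal identity genes other than Krt18, 1, Krt8, was higher by 1 or more, a share near that of all counted genes. Cldn3 and Elf5 were nearly absent from both classes. Of 16 luminal identity genes, 9 were counted, and 1 of these 9, Krt8, was higher by 1 or more while none was lower. With 9 genes this share is near the 9.40% of all counted genes that were higher. The median difference over the 9 was 0.55, against 0.25 over all counted genes. Krt8, the type II partner of Krt18, spanned 1.71 to 966 FPKM (median 278) in Krt18-positive cells, 0.117 to 1801 FPKM (median 138) in Krt18-negative cells and 29.6 to 3463 FPKM (median 705) in pregnant luminal cells. Its mean log2 level was 7.50 ± 2.01 (SD, n = 26) in Krt18-positive and 6.46 ± 2.66 (SD, n = 56) in Krt18-negative cells, a difference of 1.04, and the ranges overlapped widely. That difference was 0.73 against the cells matched on gene number. It fell below 1 when any 1 of 9 Krt18-positive or 13 Krt18-negative cells was left out, and over all 82 omissions it lay between 0.92 and 1.28.

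The other 8 counted luminal identity genes differed by less than 1. The serine protease inhibitor Spint2 was at a difference of 0.80, the adhesion molecule Epcam at 0.75, the transcription factor Gata3 at 0.73, the type I keratin Krt19 at 0.55, E-cadherin (Cdh1) at 0.43, the sort antigen Cd24a at 0.35, the type II keratin Krt7 at 0.15 and the transcription factor Elf3 at -0.16. Against the cells matched on gene number, none of the 9 passed 1 log2 unit and the median was 0.41; Spint2 was at -0.42, Epcam at 0.44, Gata3 at 0.63 and Krt19 at 0.07. Krt19 reached 1 FPKM in 8 of 26 Krt18-positive cells, 8 of 56 Krt18-negative cells and 47 of 49 pregnant luminal cells, and its median was 0 in both basal classes. The tight junction gene Cldn3 reached 1 FPKM in 0 of 26 Krt18-positive cells (a true share of up to 11.5% is allowed), in 1 of 56 Krt18-negative cells and in 45 of 49 pregnant luminal cells. The claudin Cldn4 and the transcription factor Ehf were likewise below the count, Cldn4 at 1 FPKM in 0 of 26 Krt18-positive and 1 of 56 Krt18-negative cells and Ehf in 2 of 26 Krt18-positive and 1 of 56 Krt18-negative cells. Cldn7, Muc1, Prom1 and Foxa1 were below 1 FPKM in every cell of both classes. Elf5, the ETS factor of alveolar luminal cells, reached 1 FPKM in 0 of 26 Krt18-positive and 0 of 56 Krt18-negative cells (up to 11.5% and up to 5.36%) and in 40 of 49 pregnant luminal cells.

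Counted per cell, 4 to 8 of the 16 luminal genes (median 6) reached 1 FPKM in Krt18-positive cells, 1 to 9 (median 5) in Krt18-negative cells and 3 to 14 (median 12) in pregnant luminal cells. The mean log2 level over the 16 genes was 2.07 ± 0.44 (SD, n = 26) in Krt18-positive, 1.77 ± 0.56 (SD, n = 56) in Krt18-negative and 4.87 ± 1.15 (SD, n = 49) in pregnant luminal cells. The 14 cells with the most Krt18 had no more luminal genes than the others, with a median of 6 at 100 FPKM of Krt18 or more and 6.5 between 10 and 100 FPKM. From the Krt18-negative cells these 14 differed by 1.47 for Epcam, 0.95 for Krt8 and 0.04 for Krt19.

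**Figure D1:**
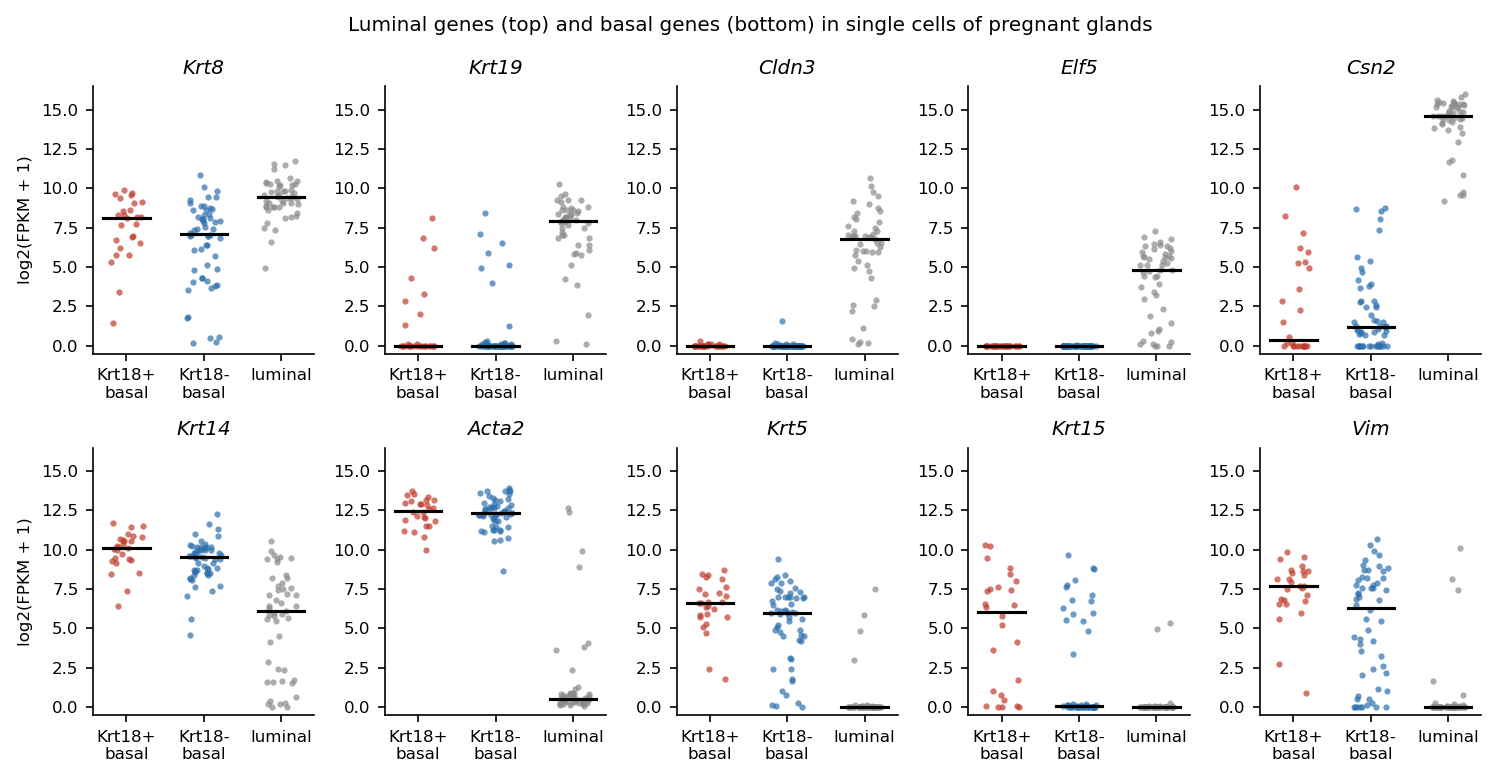
Level in each cell as log2(FPKM + 1) (y axis) of 5 luminal genes (top) and 5 basal genes (bottom) in 26 Krt18-positive basal cells (red), 56 Krt18-negative basal cells (blue) and 49 luminal cells (grey) of pregnant mice; black bars are medians. Cldn3 and Elf5 lie at or near 0 in both basal classes, Krt8 overlaps widely between them, and more red than blue cells lie high for Krt15.

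Of 10 milk protein genes 6 were counted, and none was higher or lower by 1 or more, where 9.40% of all counted genes were higher; with 6 genes this share is near the background. The median difference was 0.35. After matching on gene number 0 of the 6 were higher or lower by 1 or more, and the median was -0.03. Of all counted genes 5.66% were then higher and 2.95% lower. In the cells from the 25th to the 75th percentile of gene number (10 Krt18-positive, 30 Krt18-negative), where 9.50% of counted genes were higher and 6.95% lower, 3 of the 6 were lower by 1 or more and the median was -0.87. The largest difference over all cells was that of Mfge8, a milk fat globule protein, at 0.88 (-0.03 after matching), and the caseins lay between 0.39 for Csn2 and -0.33 for Csn1s2a. Csn2 (beta-casein) was at 10 FPKM or more in 9 of 26 Krt18-positive cells (34.6%, 17.2 to 55.7%) and 13 of 56 Krt18-negative cells (23.2%, 13 to 36.4%), and its medians were 0.279 FPKM in Krt18-positive, 1.25 FPKM in Krt18-negative and 25211 FPKM in pregnant luminal cells. Mean Csn2 was 0.253% of the luminal mean in Krt18-positive cells and 0.126% in Krt18-negative cells. The whey protein gene Wap reached 1 FPKM in 3 of 26 Krt18-positive and 4 of 56 Krt18-negative cells. The lactose synthesis gene Lalba, below the count, reached it in 4 of 26 Krt18-positive and 0 of 56 Krt18-negative cells (up to 5.36% allowed). None of 13 counted genes of milk fat synthesis differed by 1 or more (median 0.15).

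Among 12 luminal progenitor and alveolar genes, 5 were counted and 3 of them were higher by 1 or more, beside 9.40% of all counted genes. Slpi, a secreted protease inhibitor, had a median of 160 FPKM in Krt18-positive, 1.07 FPKM in Krt18-negative and 0.116 FPKM in pregnant luminal cells, a difference of 2.28 between the basal classes. It was at a higher level in basal than in luminal cells, at 1 FPKM in 20 of 26 Krt18-positive, 28 of 56 Krt18-negative and 15 of 49 pregnant luminal cells. The transferrin gene Trf was higher by 1.10 and the secretory factor Xbp1 by 1.03. Wfdc18 and Lcn2, the other counted members, were at -0.21 and -0.58. Against the cells matched on gene number, 1 of the 5, Slpi at 1.59, stayed past 1 log2 unit, beside 5.66% of all counted genes. Of the hormone-sensing luminal genes 1 of 10 was counted, and it differed by -0.01. The estrogen receptor gene Esr1 reached 1 FPKM in 2 of 26 Krt18-positive and 4 of 56 Krt18-negative cells.

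Among basal identity genes Krt15 and Vim differed most. All 12 basal identity genes were counted and all 12 differences were above 0. Of the 12, 6 were higher by 1 or more, none was lower, and the median was 0.92, where 9.40% of all counted genes were higher and their median was 0.25. Krt15, a type I keratin of basal epithelia, spanned 0 to 1237 FPKM (median 66.9) in Krt18-positive cells and 0 to 805 FPKM (median 0.0545) in Krt18-negative cells. It was at 10 FPKM or more in 17 of 26 Krt18-positive and 15 of 56 Krt18-negative cells, and differed by 2.93. Vim, the intermediate filament gene of mesenchymal and basal cells, had medians of 206 FPKM in Krt18-positive and 80 FPKM in Krt18-negative cells and differed by 2.17. P-cadherin (Cdh3, 1.18), the hemidesmosome linker Dst (1.15), the hemidesmosome collagen Col17a1 (1.11) and Krt5 (1.08) completed the 6.

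The remaining basal identity genes lay below 1 log2 unit: the transcription factor Snai2 at 0.76, Krt14 at 0.64, the basal master factor Trp63 at 0.47, Krt17 at 0.36, and the integrins Itgb4 and Itga6 at 0.30 and 0.29. The basal identity score, the mean log2 level of the 12 genes, was 5.22 ± 0.67 (SD, n = 26) in Krt18-positive and 4.18 ± 0.93 (SD, n = 56) in Krt18-negative cells. Over the 97 cells its rank correlation with Krt18 was 0.48, where that of gene number was 0.47 and that of the luminal score 0.25. The scores are not alike, since all 12 basal genes but only 9 of the 16 luminal genes were counted. Against the cells matched on gene number, 4 of the 12 were at 1 or more, beside 5.66% of all counted genes; Krt15 differed by 2.63 and Vim by 1.76, but Krt5 by 0.27 and Snai2 by -0.21.

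Contractile and basement membrane genes differed less than the basal identity genes. Of 11 counted contractile genes 1 was higher by 1 or more, the actin-binding Lmod1 at 1.08, a share near the 9.40% of all counted genes, and the median was 0.06. Acta2 differed by 0.06, the oxytocin receptor gene Oxtr by 0.89, the calponin family genes Tagln and Cnn1 by -0.29 and -0.26, and the myosin light chain Myl9 by -0.43. None of 11 counted basement membrane genes passed 1 log2 unit (median -0.10). After matching on gene number, 0 of the 11 contractile and 0 of the 11 basement membrane genes were higher or lower by 1 or more. Of all counted genes 5.66% were then higher and 2.95% lower, and the median of each of these 2 lists was -0.12. In the cells from the 25th to the 75th percentile of gene number, 4 of the 11 contractile genes and 3 of the 11 basement membrane genes were lower by 1 or more, beside 6.95% of all counted genes. Of 9 counted desmosome and junction genes 2 were higher, the cytolinker Plec at 1.57 and the plakophilin Pkp3 at 1.46, beside 9.40% of all counted genes. Krt23, 1 of 2 counted keratins outside the lineage pairs, was higher by 1.34, and Krt16, the other, by 0.42. None of 7 counted Notch pathway genes passed 1 log2 unit; the ligand genes Jag1 and Dll1 were at -0.75 and 0.14, and the target Hes1 at 0.80.

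**Figure D2:**
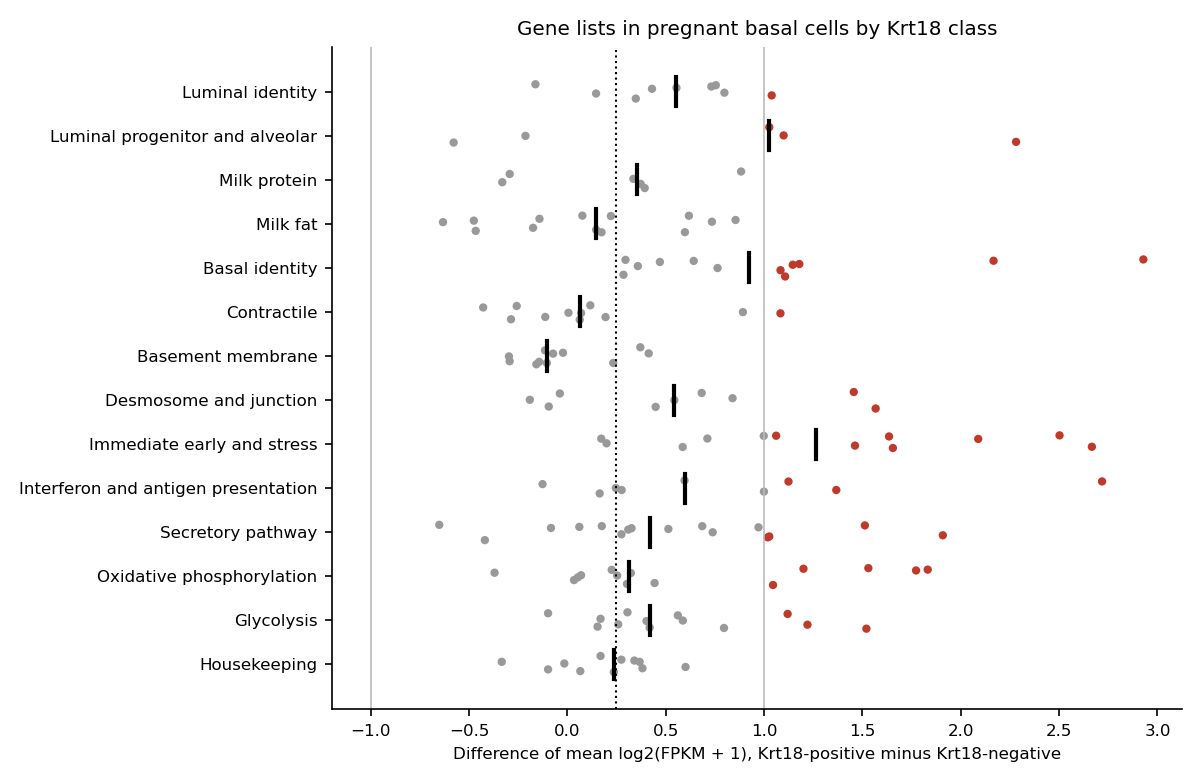
Difference of mean log2(FPKM + 1), Krt18-positive minus Krt18-negative pregnant basal cells (x axis), for the counted genes of 14 lists; each point is a gene, red at 1 or more, black bars are list medians, grey lines mark -1 and 1, and the dotted line marks 0.25, the median of all counted genes. The immediate early and stress list (median 1.26) and the basal identity list (0.92) lie to the right, and the contractile and basement membrane lists lie near 0.

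Immediate early genes had the greatest median of any list over all cells. They encode transcription factors and regulators that cells switch on within minutes of a stimulus and that dissociation of a tissue is also known to induce. All 12 counted members of the list had a difference above 0, as had 73% of all counted genes. Of the 12, 7 were higher by 1 or more and none was lower, with a median of 1.26, beside 9.40% of all counted genes higher. Fos, a subunit of the AP-1 factor, spanned 22.8 to 5802 FPKM (median 751) in Krt18-positive cells and 0.0633 to 4189 FPKM (median 173) in Krt18-negative cells. It was at 10 FPKM or more in 26 of 26 Krt18-positive and 42 of 56 Krt18-negative cells and differed by 2.67. Egr1, a zinc finger factor, spanned 45.1 to 2163 FPKM (median 359) in Krt18-positive cells and 0.0418 to 1570 FPKM (median 134) in Krt18-negative cells, and differed by 2.50. No Krt18-positive cell was low for Fos or Egr1, while Krt18-negative cells ranged from near 0 to the same high levels.

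Atf3, a stress-induced factor, had medians of 373 FPKM in Krt18-positive and 125 FPKM in Krt18-negative cells and differed by 2.09. The other members past 1 log2 unit were Fosb (1.65), the phosphatase gene Dusp1 (1.64), Ier3 (1.46) and Junb (1.06). Below it were Ier2 (0.999), Jund (0.71), Jun (0.59) and the heat shock genes Hspa1a (0.20) and Hspa1b (0.17). Against the cells matched on gene number, 7 of the 12 were again higher by 1 or more, beside 5.66% of all counted genes, the median was 1.27, and Fos and Egr1 differed by 2.83 and 2.45. In the cells from the 25th to the 75th percentile of gene number, 5 of the 12 were higher, beside 9.50% of all counted genes, and the median was 0.79.

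The immediate early score did not follow Krt18 step by step. It was 3.81 ± 1.34 (SD, n = 56) below 1 FPKM of Krt18, 3.43 ± 1.46 (SD, n = 15) from 1 to below 10 FPKM, 5.01 ± 1.00 (SD, n = 12) from 10 to below 100 FPKM and 5.22 ± 1.32 (SD, n = 14) at 100 FPKM or more. Pregnant luminal cells stood at 4.35 ± 1.00 (SD, n = 49). Median gene number was 2473 below 1 FPKM of Krt18, 2920 from 1 to below 10 FPKM and 3114 at 10 FPKM or more. Over the 97 cells the rank correlation of Krt18 with Fos was 0.18 and with Egr1 0.22.

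**Figure D3:**
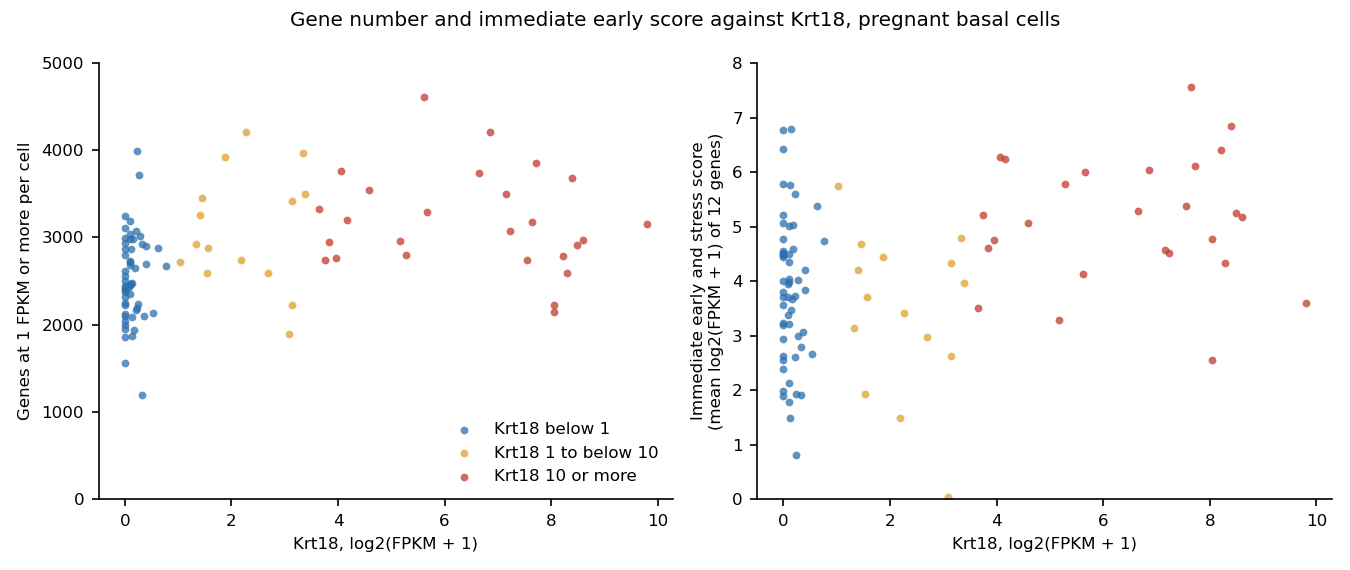
Genes at 1 FPKM or more per cell (left) and immediate early and stress score, the mean log2(FPKM + 1) of 12 genes (right), against Krt18 as log2(FPKM + 1) in 97 pregnant basal cells, coloured by Krt18 class. Gene number is higher in the orange and red cells than in most blue ones, and the immediate early score is higher in the red cells while the orange cells overlap the blue.

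Irf1, an interferon-regulatory factor, was the member that differed most in the interferon and antigen presentation list. It was at 10 FPKM or more in 20 of 26 Krt18-positive and 21 of 56 Krt18-negative cells, with medians of 92.1 FPKM in Krt18-positive and 0.569 FPKM in Krt18-negative cells, and differed by 2.72, or by 2.57 against the cells matched on gene number. Of 9 counted members 3 were higher by 1 or more, beside 9.40% of all counted genes. Besides Irf1 these were the MHC class I genes H2-D1 (1.37) and H2-K1 (1.12). H2-D1 spanned 129 to 1351 FPKM in Krt18-positive and 1.04 to 1567 FPKM in Krt18-negative cells. After matching on gene number 1 of the 9 was higher by 1 or more, beside 5.66% of all counted genes.

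Among genes outside the lists, the 10 with the greatest excess in Krt18-positive cells included Gadd45g, a growth arrest and stress gene (3.02), the tubulin polymerisation gene Tppp3 (2.79), the receptor ligand Gas6 (2.57), the endosomal sorting gene Vps28 (2.48), the cytokine signalling inhibitor Cish (2.45), the peptide-loading gene Tapbp (2.32), the polyamine enzyme gene Sat1 (2.28), the adhesion gene Icam1 (2.27) and the chemokine receptor Ackr3 (2.25). Gadd45g spanned 0 to 639 FPKM (median 58.9) in Krt18-positive and 0 to 248 FPKM (median 1.19) in Krt18-negative cells. Its difference was 3.62 against the cells matched on gene number. Icam1 had medians of 130 FPKM in Krt18-positive and 22.1 FPKM in Krt18-negative cells.

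The 10 with the greatest deficit were smaller in size, from -1.59 for the vesicle transport gene Use1 to -1.17 for the thioredoxin-like Txndc17. Between them lay the splicing gene Luc7l3 (-1.35), the G protein regulator Rgs10 (-1.26), Tmem123 (-1.24), the growth factor gene Pgf (-1.24), Tmem176a (-1.20), the phosphatase gene Phpt1 (-1.19) and the mitochondrial gene Fam162a (-1.18). Use1 was at 1 FPKM or more in 9 of 26 Krt18-positive and 32 of 56 Krt18-negative cells. Ranked by correlation with Krt18 over the 97 cells, the 5 highest of 6748 genes included Zfp511 (0.45), Tppp3 (0.45), Gas6 (0.43) and the kinase gene Slk (0.42), while Krt8 was at 0.12, Krt19 at 0.15 and Csn2 at 0.00. The cells behind these values share the sort, the library chemistry and perhaps mouse and chip, and gene number moved with Krt18.

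The promoters of Irf1 and Icam1, with that of Krt18 for comparison, are printed because Irf1 and Icam1 differed by more than 2 log2 units and carry a palindromic STAT-type motif. They were read from RefSeq on GRCm38.p6, each ending before the start, and the capitals mark matches to TTCNNNGAA; they were chosen after the values were seen. Krt18 (chr15:102027966-102028179, plus strand) has no match, Irf1 (chr11:53769764-53770013, plus strand, 1 of 2 starts listed) has one 90 to 82 bases before the start, and Icam1 (chr9:21015690-21015939, plus strand) has one 42 to 34 bases before it, counted from the RefSeq starts; GENCODE places the Icam1 start further on, at 21015985.
Krt18: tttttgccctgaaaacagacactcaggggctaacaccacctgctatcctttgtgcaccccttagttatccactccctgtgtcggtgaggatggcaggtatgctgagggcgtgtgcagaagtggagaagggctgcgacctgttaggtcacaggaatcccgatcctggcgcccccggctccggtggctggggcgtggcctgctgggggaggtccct
Irf1: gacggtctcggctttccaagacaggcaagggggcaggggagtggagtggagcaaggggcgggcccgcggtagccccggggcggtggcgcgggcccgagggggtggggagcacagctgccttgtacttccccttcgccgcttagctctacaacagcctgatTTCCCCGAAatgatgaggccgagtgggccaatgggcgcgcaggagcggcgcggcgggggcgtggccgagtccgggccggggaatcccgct
Icam1: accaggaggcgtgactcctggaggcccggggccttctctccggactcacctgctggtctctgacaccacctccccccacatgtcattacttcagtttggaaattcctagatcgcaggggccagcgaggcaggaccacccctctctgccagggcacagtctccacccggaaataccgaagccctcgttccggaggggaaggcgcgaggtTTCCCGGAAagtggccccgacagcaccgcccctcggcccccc
TTCNNNGAA was found on either strand in 7.02% of 32851 promoters of 250 bases. Of the 2 Irf1 promoters only 1, the one printed, held it. Of the 10 genes outside the lists with the greatest excess, 7 had a promoter in the table and 1, Icam1, held it. The AP-1 motif TGANTCA is in none of the windows printed, so the motifs do not overlap there; it was found in 6.75% of promoters and in 0 of the 10 matched promoters of the immediate early list, in none of which TTCNNNGAA was found either. A match is a description of letters, not of binding.

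After matching on gene number, fewer genes of metabolism and DNA replication were higher, and the medians of these lists and of the secretory list fell. The secretory median went from 0.42 to -0.31 and that of oxidative phosphorylation from 0.31 to -0.16. For glycolysis it went from 0.42 to 0.08, for DNA replication from 0.60 to 0.30 and for all counted genes from 0.25 to 0.09. The share of all counted genes that were higher also fell, from 9.40% to 5.66%, and 2.95% were lower after matching. Of 16 counted secretory pathway genes 4 were higher by 1 or more, led by the ER chaperone Calr (1.91) and the disulfide isomerase Pdia4 (1.51), and 3 were after matching (Calr 1.30, Pdia4 1.11), when 2 were lower. Of 14 oxidative phosphorylation genes 5 were higher, among them the complex subunits Sdhb (1.77) and Uqcrc1 (1.53), and 1 after matching, near the share of all counted genes. Of 13 glycolysis genes 3 were higher, Pkm (1.52), Pgam1 (1.22) and Ldha (1.12), and 0 after matching. Of 6 counted DNA replication genes 3 were higher, Rrm2 (1.13), Rrm1 (1.03) and the clamp Pcna (1.01), and 0 after matching; none of 4 mitosis genes was, and the proliferation marker Mki67 reached 1 FPKM in 3 of 26 Krt18-positive and 6 of 56 Krt18-negative cells. None of 11 housekeeping genes passed 1 log2 unit (median 0.24).

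In the lists of markers of other cell types, some genes were below 1 FPKM in every cell and others were found in some cells. Of 11 endothelial genes 8, among them Cdh5, Kdr and Flt1, were below 1 FPKM in every cell (Cdh5 by the rule). The summed endothelial list reached 25.1 FPKM in Krt18-positive and 66 FPKM in Krt18-negative cells at most. Below 1 FPKM in every cell were 6 of 9 immune genes, among them the pan-leukocyte gene Ptprc and the T cell gene Cd3e. So were 4 of 10 fibroblast genes, among them the collagen Col1a1, and 6 of 10 adipocyte genes, among them Adipoq and Plin1. Of 10 pericyte genes 6 were below 1 FPKM in every cell, with Kcnj8 at 0. The pericyte list summed to at most 190 FPKM in Krt18-positive and 508 FPKM in Krt18-negative cells. Its member Rgs5 was at 1 FPKM in 7 of 26 Krt18-positive and 18 of 56 Krt18-negative cells. The adipocyte list summed to at most 95.8 FPKM in Krt18-positive and 4084 FPKM in Krt18-negative cells, with the lipid carrier Fabp4 at 1 FPKM in 6 of 26 Krt18-positive and 15 of 56 Krt18-negative cells. The immune list summed to at most 263 FPKM in Krt18-positive and 273 FPKM in Krt18-negative cells. Of the counted fibroblast genes, Dcn, which basal cells also expressed, was higher by 1.26, with medians of 295 FPKM in Krt18-positive and 175 FPKM in Krt18-negative cells. Of 4 counted Schwann list genes 2 were higher, Pmp22 (1.14) and the early response gene Egr2 (1.10), beside 9.40% of all counted genes. The summed fibroblast list spanned 0.405 to 962 FPKM in Krt18-positive and 0.131 to 1691 FPKM in Krt18-negative cells, and the summed Schwann list 1.67 to 608 FPKM in Krt18-positive and 0.702 to 761 FPKM in Krt18-negative cells; their part in the differences was not tested. The immune gene Cd74 differed by -0.91, and was at 1 FPKM in 3 of 26 Krt18-positive and 16 of 56 Krt18-negative cells.

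Of 34 virgin basal cells, 11 were Krt18-positive, 14 Krt18-negative, 2 between and 7 were left out for Cdh5. The basal label did not hold in all: Krt14 was at 10 FPKM or more in 11 of 11 Krt18-positive and 13 of 14 Krt18-negative virgin basal cells, and Acta2 in 11 of 11 Krt18-positive and 12 of 14 Krt18-negative cells. Most single-gene differences and the immediate early score are given for all classed cells only. List counts and a few gene differences are also given without the 2 Krt18-negative cells that lacked either gene, a choice made after the data had been seen. Without them 17.9% of counted genes were higher and 6.44% lower. Gene number had medians of 2371 in Krt18-positive and 1686 in Krt18-negative virgin basal cells. Relative depth had medians of 1.04 in Krt18-positive and 0.556 in Krt18-negative virgin basal cells. The part of depth in the virgin differences was not tested. Of 5574 counted genes 1111 (19.9%) were higher and 251 (4.50%) lower by 1 or more, with a median of 0.28. Of 6 counted luminal identity genes 5 were higher, Cd24a (2.42), Gata3 (1.85), Krt8 (1.74), Spint2 (1.64) and Cdh1 (1.14), and 1, Epcam (-1.13), was lower, with a median of 1.69. With each virgin basal cell left out in turn, 4 to 5 luminal genes were higher. The Krt18-positive virgin cell with the most luminal genes at 1 FPKM, 12 of 16, had Csn2 at 6147 FPKM and Cldn3 at 1155 FPKM; without it 4 luminal genes were higher and the median was 1.39. Without the 2 cells lacking a basal marker, 4 luminal genes were higher and 1 lower, the median was 1.14 and Krt8 differed by 1.08.

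Of the 12 immediate early genes none was higher by 1 or more in Krt18-positive virgin basal cells, beside 19.9% of all counted genes; 2 were lower, Ier3 (-3.64) and Egr1 (-1.18), Fos was at -0.72, and the median was -0.25, with 0 to 1 higher and 1 to 3 lower when a cell was left out in turn. Without the 2 cells lacking a basal marker, 1 was higher and 1 lower, the median was 0.05, and Ier3, Fos and Egr1 were at -2.87, -0.97 and -0.61. The immediate early score was 2.93 ± 1.61 (SD, n = 11) in Krt18-positive and 3.37 ± 1.59 (SD, n = 14) in Krt18-negative virgin basal cells. Of 11 counted basal identity genes 2 were higher, Krt17 (1.79) and Krt5 (1.19), and 1 was lower, Vim (-2.24), while Krt15 was at 0.30. The contractile list had 6 of 11 higher and 1 lower, with a median of 1.42. Without the 2 cells lacking a basal marker, 1 basal identity gene was higher and 1 lower, and the contractile list had 2 higher and 1 lower, with a median of 0.08. Whether the differences by Krt18 class differ between pregnancy and virginity was not tested, since each class counts as 1 sample. Sort and animals cannot be told apart from stage, and depth also differed between the virgin classes.

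**Figure D4:**
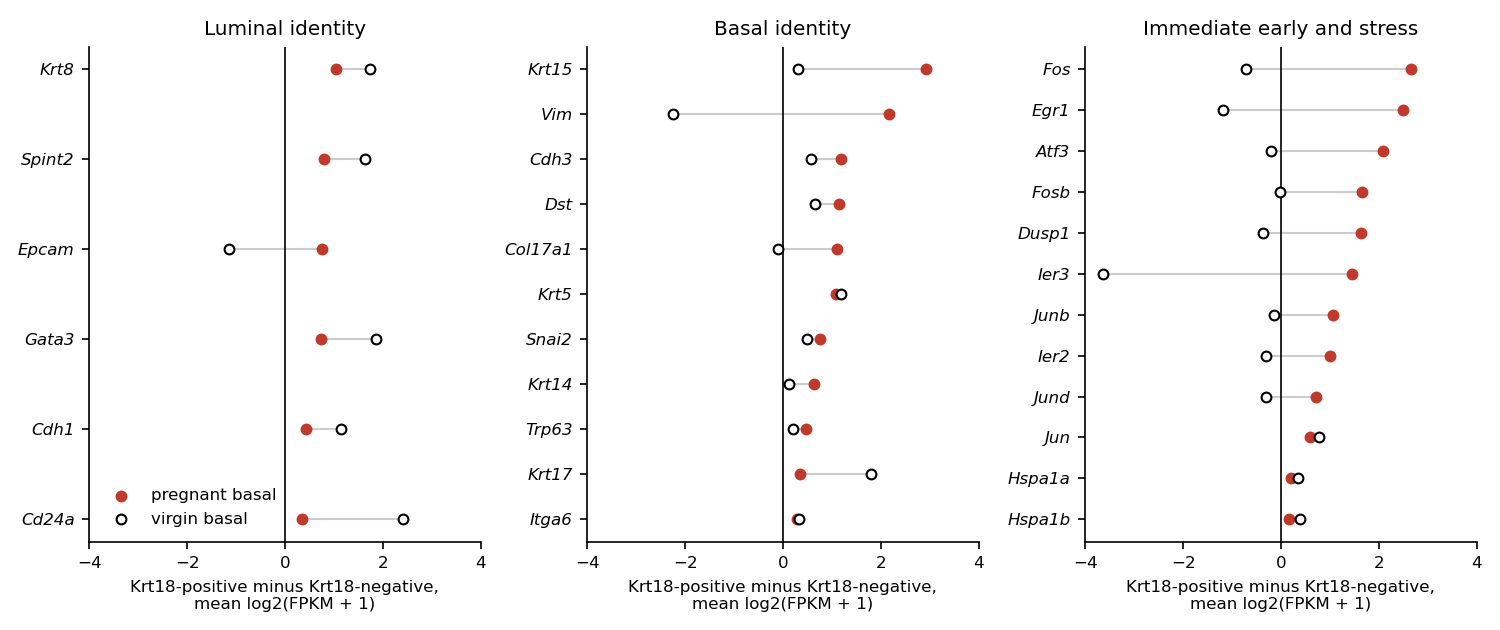
Difference of mean log2(FPKM + 1), Krt18-positive minus Krt18-negative cells, for genes counted at both stages in 3 lists, in pregnant basal (red, 26 and 56 cells) and virgin basal cells (open circles, 11 and 14 cells). Of the luminal genes 5 of 6 lie further right in the virgin cells, and most immediate early genes lie to the right of 0 in the pregnant cells and at or to the left of 0 in the virgin cells.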

How the data were processed

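Single cells of FVB mammary glands were sorted, captured on Fluidigm C1 chips, amplified with the SMARTer kit and sequenced from Nextera XT libraries; capture sites were inspected by microscope, per the labels, and no doublet caller was run here. The authors deposited 1 table of FPKM values for 239 cells and 18850 genes; no header states the unit, which rests on the tools named and on the values. Per the submitters' processing notes, the tools were Cufflinks 2.2.1, TopHat2 2.0.13 and Trimmomatic 0.35 and the build mm10 (GRCm38). The annotation, and how fragments matching several genes were shared out, were not given in the sources used here. Relative depth came from the steps of low FPKM values (8701 genes, 92% of 339397 values whole within 0.1 step), and no 2 cells had identical values.

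Cells were classed by Krt18 and Cdh5 as described above. Per gene the mean log2(FPKM + 1) per class, its SD and the shares of cells at 1 and 10 FPKM with exact Clopper-Pearson 95% intervals were computed with Python 3.11.15, numpy 2.4.6 and scipy 1.17.1; for 0 cells the share allowed was set at 3 cells of the class. Since a cell is not a replicate, no test was run. The members, the 27 gene lists (316 entries, 314 in the table; Vim, Snai2 and Xbp1 stand in more than 1) and the promoters were chosen with earlier results of these data known. Genes named are Krt8, Krt14, Acta2, the luminal identity list, up to 5 members of every other list with the greatest difference, the 10 genes outside the lists with the greatest difference in each direction, the 5 with the highest rank correlation with Krt18, and Csn2, Wap, Elf5, Esr1, Trp63, Mki67 and Dll1; further list members, and Lalba, were named after their values were seen, and some genes the rule names are not reported here. The script for differences was run on these cells with shuffled class labels and some genes raised, which checks the computation and not the results.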

Additional observations from a re-analysis of the deposited data

How the results depend on the processing

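Every value compares cells of 2 classes that each count as 1 sample, so no alternative gives a test, and depth sets which low genes are found. No paired analysis was possible because the replicate numbers only name cells and no test was run. With a pseudocount of 0.1, 1818 genes were higher and 89 lower, and 3 luminal identity genes were higher; with a pseudocount of 10 these were 61, 0 and 0. With Krt18-positive set at 1 FPKM or more (41 cells), 392 genes were higher and 5 lower, 0 luminal and 3 immediate early genes were higher. At 100 FPKM or more (14 cells), 87 genes were lower. Without omission for Cdh5 (27 Krt18-positive, 60 Krt18-negative), 2 luminal genes were higher. In cells with at least 2000 genes, 35 genes were lower; between the 25th and 75th percentile of gene number, 469 were. After rescaling by the median ratio 0 luminal genes were higher, and without cells with Csn2 at 10 FPKM or more 64 genes were lower. Against matched cells the counts were 382 higher and 199 lower, with 0 luminal genes higher. The median over counted genes moved to 0.52 with a pseudocount of 0.1, 0.01 between the percentiles and 0.09 after matching; the cause was not tested. With each of 82 cells left out in turn, 0 to 1 luminal and 4 to 6 basal identity genes were higher. Of the 12 basal identity genes, 6 were higher in the main comparison, 7 with a pseudocount of 0.1 and 2 with a pseudocount of 10. With Krt18-positive set at 1 FPKM or more 2 of the 12 were higher, and at 100 FPKM or more 6 were. Of the 634 genes higher by 1 or more, 312 stayed so after matching, 521 after rescaling and 288 between the percentiles.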

Other observations

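Conditions combining several genes were looked at after the values had been seen. Fos and Egr1 were together at 10 FPKM or more in 35 of 56 cells below 1 FPKM of Krt18 (62.5%, 48.5 to 75.1%), in 9 of 15 cells from 1 to below 10 FPKM (60%, 32.3 to 83.7%) and in 26 of 26 cells at 10 FPKM or more (100%, 86.8 to 100%).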
